A study of Mus musculus with 24 samples.

Results

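The genes that build the secretory granules of enteroendocrine cells and make their serotonin were followed through sorted cells of the mouse gut. The group holds 10 genes of the 53465 in the count table, chosen by name for their known roles, with earlier results of these data known but with no measured value in the rule: Chga, Chgb, Scg2, Scg3, Scg5, Pcsk1, Pcsk1n, Cpe, Tph1 and Slc18a1. The cells came from Guca2a-Venus mice, which carry a bacterial artificial chromosome in which the yellow fluorescent protein Venus stands in the place of the coding sequence of Guca2a, the gene of the gut peptide proguanylin. All animals descended from 1 founder line crossed back to C57Bl6J, so the controls, which are the non-fluorescent cells of the same animals, carry the transgene too. Cells with strong Venus signal (Venus-positive) and cells with none (Venus-negative) were sorted from the epithelium of the duodenum, jejunum, ileum, and colon with rectum, after dead cells, debris and CD45-positive leucocytes had been gated out. Each of the 8 groups of region and sort held 3 libraries. The series describes them as coming from 3 mice, whose ages the labels do not give, and the labels do not say which library came from which mouse, so p values measure the spread between these libraries. Replicate numbers only name the libraries.

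Enteroendocrine cells are scattered hormone-secreting cells of the gut lining, and those that make serotonin are called enterochromaffin cells. They store their products in dense granules filled with acidic proteins, the granins, and cut peptide precursors inside those granules with a prohormone convertase and a carboxypeptidase. Serotonin is made from tryptophan by a rate-limiting hydroxylase and pumped into vesicles by a monoamine transporter. CD45-positive cells were gated out, and the epithelium holds few neurons, but both mast cells and neurons can express several of these genes.

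Several genes of the group share a short promoter motif, and 5 promoter sequences are printed here, those with the full motif and those of Chga and Tph1, which mark enterochromaffin cells. RefSeq promoter windows (GRCm38.p6, 250 bases before to 50 bases after the transcript start) were matched by symbol for 8 of the 10 genes, in 9 windows, since Tph1 has more than 1, of which the one that ends at the gene start of GENCODE M21 is printed. The 110 bases just before the start are given 5′ to 3′ on the strand of the gene, with the cyclic AMP response element, TGACGTCA, or its core, TGACG, in capitals; on the opposite strand the core reads CGTCA.
Chga: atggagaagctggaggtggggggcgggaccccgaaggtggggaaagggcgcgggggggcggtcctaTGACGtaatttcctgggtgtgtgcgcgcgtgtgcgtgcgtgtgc
Chgb: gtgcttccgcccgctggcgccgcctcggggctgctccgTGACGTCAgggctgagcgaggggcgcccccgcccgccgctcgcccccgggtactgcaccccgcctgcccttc
Scg2: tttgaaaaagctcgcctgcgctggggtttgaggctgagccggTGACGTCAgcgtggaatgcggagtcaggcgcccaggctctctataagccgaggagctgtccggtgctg
Pcsk1: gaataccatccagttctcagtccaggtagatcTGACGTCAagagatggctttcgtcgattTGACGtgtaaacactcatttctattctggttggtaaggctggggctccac
Tph1: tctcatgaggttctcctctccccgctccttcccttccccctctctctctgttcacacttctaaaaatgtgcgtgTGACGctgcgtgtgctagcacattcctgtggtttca
These stretches lie at chr12:102554831-102554940 on the plus strand for Chga, chr2:132781532-132781641 on the plus strand for Chgb, chr1:79440027-79440136 on the minus strand for Scg2, chr13:75089747-75089856 on the plus strand for Pcsk1 and chr7:46672538-46672647 on the minus strand for Tph1. GENCODE M21 places the start of the Chgb, Scg2 and Pcsk1 genes upstream of the RefSeq start used here. It places that of Chga downstream, at 102554969, so distances given for these genes hold for the RefSeq start only.

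The full element TGACGTCA was present in the windows of Chgb, Scg2 and Pcsk1. It began 72 bases before the start in Chgb, 68 bases before it in Scg2 and 78 bases before it in Pcsk1. Of all 32851 windows of the same length, 1.79% held it on either strand. The core TGACG, which is part of the full element, was found in the windows of 7 of the 8 genes, Pcsk1n being the exception. The core was in 8 of the 9 windows, against 20.8% of all windows. In Chga it began 44 bases before the start, and in the Tph1 window printed above 36 bases before it. The other Tph1 window held 3 cores. The window of Scg2 also held TTCAGCACC, the left part of the site bound by the neuronal repressor REST, on the opposite strand across the transcript start, as did 0.371% of all windows. A TATA box (TATAAA) was found in the Chga window, against 13.6% of all windows. It lies after the start given by RefSeq but before the one given by GENCODE M21. The motifs were picked after these windows had been seen, so the shares beside all windows are a description and no test. A match is a description of letters in the window and says nothing on binding in these cells.

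**Figure D1:**
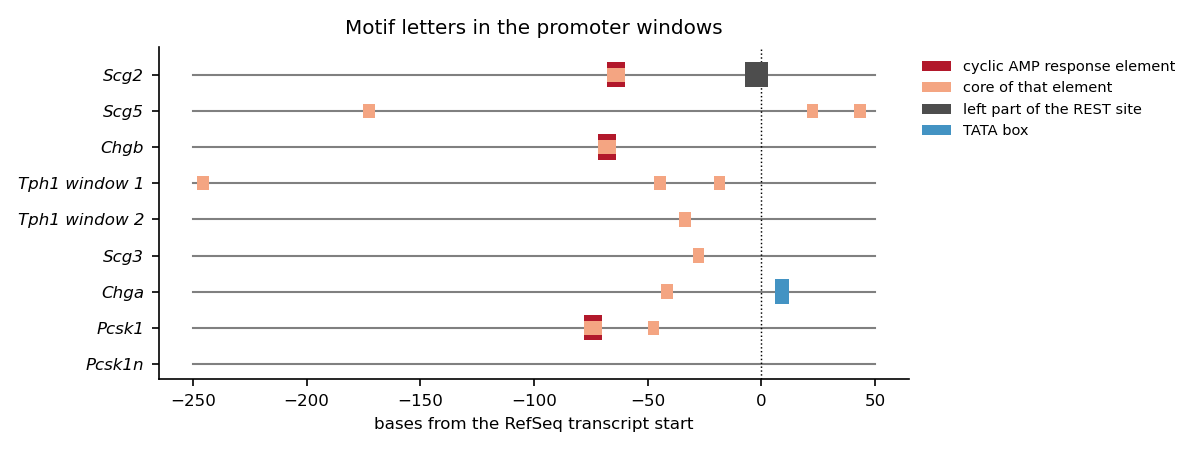
Motifs in the promoter windows of 8 of the 10 genes, 1 line per RefSeq window. The horizontal axis is the distance in bases from the transcript start (dotted line), and boxes mark each match on either strand. The full cyclic AMP response element lies at 61 to 78 bases before the start in Scg2, Chgb and Pcsk1.

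The libraries held 7458616 to 23063124 reads on genes (median 15379489.5). Levels are counts per 1000000 reads (CPM) of the TMM-adjusted library size. The floor of detection was taken as 3 counts, or 0.106 to 0.360 CPM on this scale. Log2 fold changes and adjusted p values come from edgeR's quasi-likelihood test fitted to all 15044 genes that passed the filter on low counts. All 10 genes passed it. Enteroendocrine transcription factors and hormones, taken as 18 markers that share no gene with the group, were apart between the sorts in every region when summed. Venus-positive libraries summed to 31.9 to 49.0 CPM (duodenum), 54.0 to 84.2 CPM (jejunum), 82.5 to 95.8 CPM (ileum) and 30.3 to 46.2 CPM (colon), and Venus-negative ones to 672 to 1106, 389 to 1241, 132 to 301 and 62.1 to 162 CPM. Of 17 of these markers tested, 12, 16, 11 and 6 were lower in Venus-positive cells and 0, 0, 0 and 1 higher, with median log2 fold changes of −4.47, −4.25, −2.78 and −1.82 (−4.21, −4.25, −2.01 and −1.82 with markers without a Venus-positive count at their bound). All 8 goblet cell markers were higher in Venus-positive cells in every region, and all 6 Paneth cell markers in each small intestinal region. Of 7 mast cell markers 2 had no count in any library and the sum reached at most 2.89 CPM, 8 enteric neuron markers summed to at most 3.99 CPM, and 4 glial markers to at most 0.631 CPM. Markers of other cells moved as well. Enterocyte markers were higher in Venus-positive cells for 7 of 7 in the jejunum (13719 to 15846 CPM summed, against 1321 to 1863 CPM) and 7 of 7 in the ileum, for 1 in the duodenum, where 1 was lower, and for 3 in the colon. Fibroblast markers were lower for 3 of 5 in the ileum (at most 17.7 CPM summed in Venus-negative libraries). Immune markers summed to 10.2 to 29.1 CPM in Venus-positive and 1.12 to 2.85 CPM in Venus-negative libraries of the duodenum, where 1 of 4 tested was higher, and in the ileum 1 was higher and 1 lower. Tuft cell markers were lower in Venus-positive cells for 3, 5, 5 and 0 of 5 tested from duodenum to colon, and proliferative and stem cell markers for 2, 6, 6 and 3 of 6. As background to all these marker counts, 8.08%, 25.6%, 20.6% and 3.8% of all genes were lower from duodenum to colon. Those higher came to 8.88%, 18.3%, 17.9% and 9.31%. The ileal immune counts and the colonic count of higher enteroendocrine markers were near or below it. Enterocyte and immune counts in the duodenum rest on 1 gene each. The share of mitochondrial reads moved with the sort in the small intestine. It was 32.3% to 46.6% in Venus-positive against 64.6% to 76.4% in Venus-negative libraries of the duodenum, 47.1% to 60.6% against 61.2% to 78.8% in the jejunum and 41.0% to 55.4% against 64.7% to 70.9% in the ileum. In the colon the sorts overlapped (68.6% to 77.9% against 65.3% to 80.7%). The part of these markers and of the mitochondrial share in the results was not tested. In bulk RNA, fewer cells of a type and less RNA per cell cannot be told apart.

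Venus-positive cells held less of most of the 10 genes in the small intestine, and less of 5 of them in the colon. In the duodenum 9 of the 10 genes were lower in Venus-positive cells, where 8.08% of all genes tested were lower and 8.88% higher. In the jejunum 9 of the 10 were lower, with 25.6% of all genes lower and 18.3% higher. In the ileum 7 of the 10 were lower, with 20.6% of all genes lower and 17.9% higher. In the colon 5 of the 10 were lower, with 3.8% of all genes lower and 9.31% higher. Of these colonic calls, those of Chga, Chgb and Scg2 were lost without Venus-positive replicate 3 (edgeR, adjusted p 0.146, 0.0951 and 0.0721). In no region was a gene of the group higher at an adjusted p under 0.05, nor at an unadjusted p under 0.05. DESeq2 called 9, 9, 7 and 6 of them lower. The shares of all genes above are edgeR's, and none is given for DESeq2. The median log2 fold change of the 10 genes from duodenum to colon was −4.53 (−4.27 with the genes that had no count in the Venus-positive libraries put at their bound), −4.02, −2.13 and −1.76, against −0.16, −0.28, −0.27 and 0.0 over all genes. With scaling by library size alone the median over all duodenal genes moved to 0.27, so duodenal changes are best read relative to that shift. All 3 Venus-positive libraries lay below all 3 Venus-negative ones for 9, 9, 6 and 6 genes in that order. No share of all genes so separated is given beside these counts, which are a description only.

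**Figure D2:**
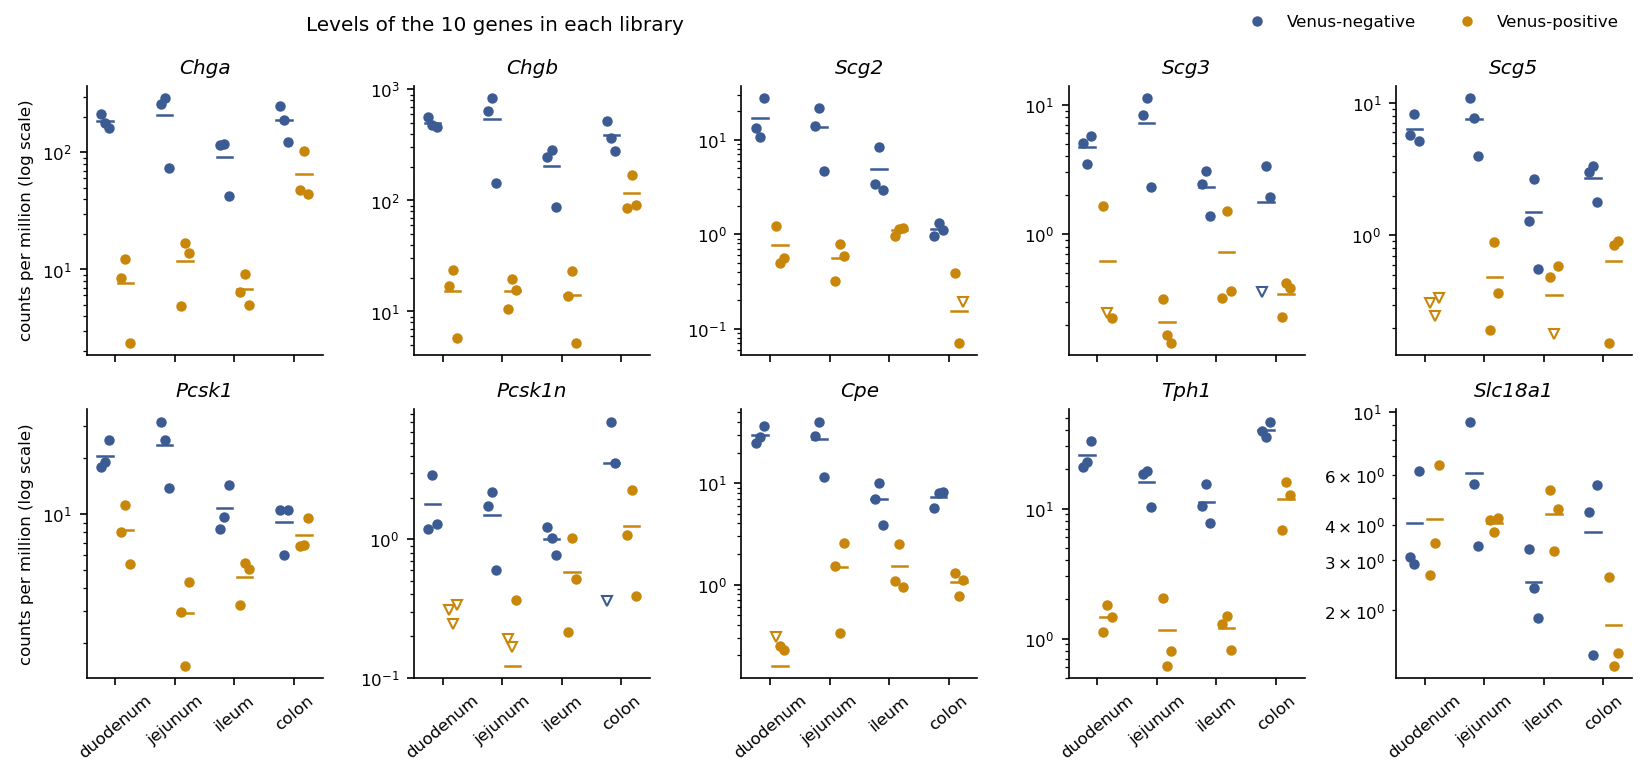
Levels of the 10 genes in each of the 24 libraries, in CPM on a log axis, by region, with Venus-negative libraries in blue and Venus-positive ones in orange. Bars are group means (n = 3), and open triangles mark libraries without a count, drawn at the level of 3 counts. Chga, Chgb and Tph1 separate the sorts in every region, while Slc18a1 overlaps in every region.

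Libraries of 1 sort were not alike in the amount of these transcripts. Among the jejunal Venus-negative libraries replicate 3 was the lowest for all 10 genes, with a summed level of 267 CPM against 1019 and 1257 CPM. Its 18 enteroendocrine markers summed to 389 CPM against 1241 and 843 CPM. Among the ileal Venus-negative libraries replicate 3 was the lowest for 9 of the 10 genes, with 163 CPM against 397 and 458 CPM. Its enteroendocrine markers, at 210 CPM, lay between the 132 and 301 CPM of the other libraries. With both libraries left out, 9 of 10 genes were lower in Venus-positive cells of the jejunum and 6 of 10 in the ileum. There the call of Pcsk1 was lost (edgeR, log2 fold change −0.98, adjusted p 0.0544). No share of all genes at that setting is given beside these counts.

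Chromogranin A (Chga; chr12:102554969-102565028, plus strand of GRCm38, as are all gene positions given here from GENCODE M21), the granin most used to mark neuroendocrine cells, was read at 212, 180 and 161 CPM in the Venus-negative libraries of the duodenum and at 8.40, 12.3 and 2.36 CPM in the Venus-positive ones. In the jejunum it was at 260, 290 and 73.3 CPM in Venus-negative and 4.86, 16.8 and 13.9 CPM in Venus-positive libraries. In the ileum the levels were 115, 118 and 42.7 CPM against 6.46, 9.13 and 5.0 CPM. The sorts did not overlap in any of these regions, and the Venus-positive libraries stayed far above the floor of detection. In the colon Venus-negative libraries held 251, 190 and 123 CPM and Venus-positive ones 48.1, 104 and 44.1 CPM, so that the lowest Venus-negative library was close to the highest Venus-positive one. Its log2 fold change was −4.57 ± 0.57 (SE) in the duodenum (adjusted p 9.89e-07), −4.13 ± 0.56 in the jejunum (1.07e-06), −3.74 ± 0.55 in ileal cells (4.68e-06) and −1.53 ± 0.50 in the colon (0.0405). The colonic call was lost in 4 of 6 fits that left out 1 library: without Venus-positive replicate 1 (adjusted p 0.167), Venus-positive replicate 3 (0.146), Venus-negative replicate 1 (0.137) or Venus-negative replicate 2 (0.0641).

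Chromogranin B (Chgb; chr2:132781278-132795079, plus strand), a second major granin, had the highest level of the group per kilobase of exon in Venus-negative cells, with regional means of 75.3 to 196 CPM per kb against 33.3 to 75.4 for Chga. Duodenal Venus-negative libraries held 570, 480 and 454 CPM, and the Venus-negative mean was 537 ± 355 CPM (SD, n = 3) in the jejunum, 206 ± 106 CPM in the ileum and 388 ± 121 CPM in colonic cells. From duodenum to colon it was 15.4 ± 9.04, 15.1 ± 4.51, 14.2 ± 9.08 and 116 ± 47.6 CPM in Venus-positive cells. The colonic Venus-positive libraries, at 85.7, 171 and 91.2 CPM, all lay above every Venus-positive library of the small intestine. The log2 fold change was −5.02 ± 0.62 in the duodenum (adjusted p 6.43e-07), −5.15 ± 0.62 in the jejunum (2.24e-07), −3.86 ± 0.58 in ileal cells (6.35e-06) and −1.75 ± 0.53 in the colon (0.027). In the colon the call was lost without Venus-positive replicate 1 (adjusted p 0.125), Venus-positive replicate 3 (0.0951) or Venus-negative replicate 1 (0.0964).

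Secretogranin II (Scg2; chr1:79434669-79440120, minus strand), the granin that is the precursor of secretoneurin, had its lowest mean in the colon in both sorts. Duodenal Venus-negative libraries held 13.3, 10.8 and 27.6 CPM and jejunal ones 14.2, 21.9 and 4.72 CPM. Ileal ones held 3.42, 8.50 and 2.94 CPM and colonic ones 0.959, 1.32 and 1.11 CPM. Venus-positive libraries reached at most 1.23 CPM in any region and were at 5, 1 and 0 counts in the colon. The sorts did not overlap in any region. Its log2 fold change was −4.49 ± 0.66 in the duodenum (adjusted p 1.17e-05), −4.57 ± 0.65 in the jejunum (2.15e-06), −2.18 ± 0.59 in ileal cells (0.0039) and −2.91 ± 0.80 in the colon (0.0137). The ileal call was lost without Venus-negative replicate 2 (adjusted p 0.0527), and the colonic one without Venus-positive replicate 2 (0.079), without Venus-positive replicate 3 (0.0721) and in a fit of the colonic libraries alone (0.118). Without Venus-positive replicate 1 the colonic value was −4.76.

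Secretogranin III (Scg3; chr9:75643189-75684056, minus strand), which tethers granins to granule membranes, was a low transcript, at 5.05, 3.50 and 5.70 CPM in duodenal Venus-negative libraries and 1.64, 0 and 0.225 CPM in Venus-positive ones. Its log2 fold change was −2.94 ± 0.97 in the duodenum (adjusted p 0.0347) and −5.05 ± 1.07 in the jejunum (0.000307). The duodenal call was lost in 5 of 6 fits that left out 1 library (all but the one without Venus-positive replicate 1), with adjusted p up to 0.125 without Venus-positive replicate 2, and under scaling by library size alone (0.0615). Without Venus-positive replicate 1, which held 16 counts beside 0 and 2, the value was −5.48. In the ileum the value was −1.65 ± 0.90 (adjusted p 0.152), and it lay between −2.73 and −1.29 when 1 library was left out. In the colon it was −2.35 ± 0.98 (0.117), where the Venus-negative libraries were at 0, 46 and 23 counts. Without the library at 0, Venus-negative replicate 1, the colonic log2 fold change was −2.90 with an adjusted p of 0.033. With all libraries and no filter on low counts the colonic value was −2.37 and passed (edgeR, adjusted p 0.0397).

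The processing genes of the granule were in part below detection in Venus-positive cells. Scg5 (chr2:113776362-113829121, minus strand) encodes 7B2, the chaperone of a prohormone convertase. It had no count in the 3 duodenal Venus-positive libraries, where Venus-negative ones held 81, 127 and 72 counts, and was thus at least 21.4-fold lower (group means, taken against 3 counts in each Venus-positive library; adjusted p 2.34e-05). In the jejunum its level was 7.50 ± 3.43 CPM in Venus-negative and 0.483 ± 0.365 CPM in Venus-positive cells (log2 fold change −3.91 ± 0.82, adjusted p 0.000328). In the ileum the log2 fold change was −2.08 ± 0.81 (0.0424), with sorts that overlapped. That call was lost without Venus-positive replicate 1 (0.0563) or 2 (0.161), without Venus-negative replicate 1 (0.0552) or 2 (0.234, with a value of −1.37), and in a fit of the ileal libraries alone (0.119). In the colon it was −2.07 ± 0.78 (adjusted p 0.0821), and DESeq2 called it (0.0275).

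Pcsk1n (chrX:7919822-7924410, plus strand) encodes proSAAS, an inhibitor of the convertase made from Pcsk1. It too had no count in the duodenal Venus-positive libraries, against 17, 45 and 18 counts in the Venus-negative ones, and was at least 6.07-fold lower (adjusted p 0.0068). In the jejunum Venus-positive libraries held 0, 0 and 5 counts and Venus-negative ones 23, 34 and 10 counts (log2 fold change −3.65 ± 1.27, adjusted p 0.0216). The jejunal call was lost without Venus-positive replicate 1 (0.0877) or 2 (0.0992) or Venus-negative replicate 1 (0.0506) or 2 (0.0573). Without Venus-positive replicate 3, which held all 5 counts, the fitted value was −7.53, so the size of the fold is not determined. In the ileum the log2 fold change was −0.79 ± 1.08 (adjusted p 0.593) and in the colon −1.52 ± 1.07 (0.387), where Venus-negative replicate 1 had no count beside 97 and 42 in the others. Leaving out 1 library moved the value between −1.48 and −0.39 in the ileum and between −2.33 and −0.64 in the colon.

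Cpe (chr8:64592542-64693054, minus strand) encodes carboxypeptidase E, which trims basic residues from hormones after convertase cleavage. In the duodenum it showed 355, 434 and 504 counts in the Venus-negative libraries and 0, 3 and 2 counts in the Venus-positive ones, a ratio of 183 with an exact 95% counting interval of 78.2 to 565 (adjusted p 1.51e-08 by edgeR). In the jejunum it was at 27.0 ± 14.6 CPM in Venus-negative and 1.47 ± 1.11 CPM in Venus-positive cells (log2 fold change −4.22 ± 0.56, adjusted p 7.52e-07). On the log2 scale the fold change was −2.17 ± 0.52 in ileal cells (0.00138) and −2.76 ± 0.55 in the colon (0.000922). Sorts did not overlap in any region, and each of the 4 calls was kept whichever library of its region was left out.

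Pcsk1 (chr13:75089826-75134861, plus strand), a prohormone convertase of these granules, was read well above the floor of detection in all Venus-positive libraries. Duodenal Venus-positive libraries read 7.99, 11.2 and 5.40 CPM against 17.9, 19.1 and 25.1 CPM in Venus-negative ones. Colonic Venus-positive libraries read 6.72, 6.80 and 9.55 CPM against 10.5, 6.01 and 10.5 CPM, and these overlapped. The log2 fold change was −1.33 ± 0.38 in the duodenum (adjusted p 0.0146), −3.02 ± 0.40 in the jejunum (8.97e-07), −1.23 ± 0.38 in ileal cells (0.0107) and −0.22 ± 0.38 in the colon (0.765). The colonic value lay between −0.51 and −0.08 when 1 library was left out. The duodenal call was lost without Venus-positive replicate 1 (0.0562) or 3 (0.0742), without Venus-negative replicate 3 (0.0653) and under scaling by library size alone (0.116). The ileal call was lost without Venus-positive replicate 1 (0.0587) or Venus-negative replicate 3 (0.0677).

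Tph1 (chr7:46644641-46672537, minus strand), the rate-limiting enzyme of serotonin synthesis outside the brain, was lower in Venus-positive cells in all 4 regions, and each of these calls was kept whichever library of its region was left out. Its levels in Venus-negative libraries were 20.8, 22.9 and 33.2 CPM (duodenum), 18.4, 19.6 and 10.3 CPM (jejunum), 10.5, 15.4 and 7.76 CPM (ileum) and 39.4, 35.4 and 46.7 CPM (colon). In the small intestine no Venus-positive library passed 2.05 CPM, whereas in the colon they held 6.88, 16.0 and 12.7 CPM. The sorts did not overlap in any region. On the log2 scale the fold change was −4.11 ± 0.44 in the duodenum (adjusted p 5.65e-08), −3.80 ± 0.43 in the jejunum (1.17e-07), −3.20 ± 0.42 in ileal cells (8.32e-07) and −1.77 ± 0.37 in the colon (0.00155).

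Slc18a1, the vesicular monoamine transporter VMAT1, did not share this pattern. Its Venus-positive libraries held 2.66, 3.45 and 6.53 CPM (duodenum), 4.15, 3.79 and 4.23 CPM (jejunum), 5.33, 3.24 and 4.56 CPM (ileum) and 2.63, 1.27 and 1.42 CPM (colon). Venus-negative libraries held 3.09, 2.92 and 6.20 CPM, 9.26, 5.60 and 3.39 CPM, 3.30, 2.40 and 1.88 CPM, and 4.43, 1.39 and 5.53 CPM in the same order. Groups overlapped in every region. Its log2 fold change was 0.05 ± 0.51 in the duodenum (adjusted p 0.967), −0.58 ± 0.50 in the jejunum (0.367), 0.79 ± 0.51 in ileal cells (0.227) and −1.09 ± 0.53 in the colon (0.185). The sign in the duodenum turned when Venus-negative replicate 1 or 2 or Venus-positive replicate 3 was left out. Leaving out 1 library moved the jejunal value between −0.87 and −0.08 and the colonic one between −1.56 and −0.67. The 5′ end of Slc18a1 (chr8:69037711-69089235, minus strand) overlaps that of Atp6v1b2, a proton pump subunit read at 38.1 ± 1.42 CPM in Venus-positive and 15.5 ± 1.97 CPM in Venus-negative cells of the duodenum, and the strand setting of the counting is not given in the sources used here. How much of the Slc18a1 count comes from that overlap was not tested.

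**Figure D3:**
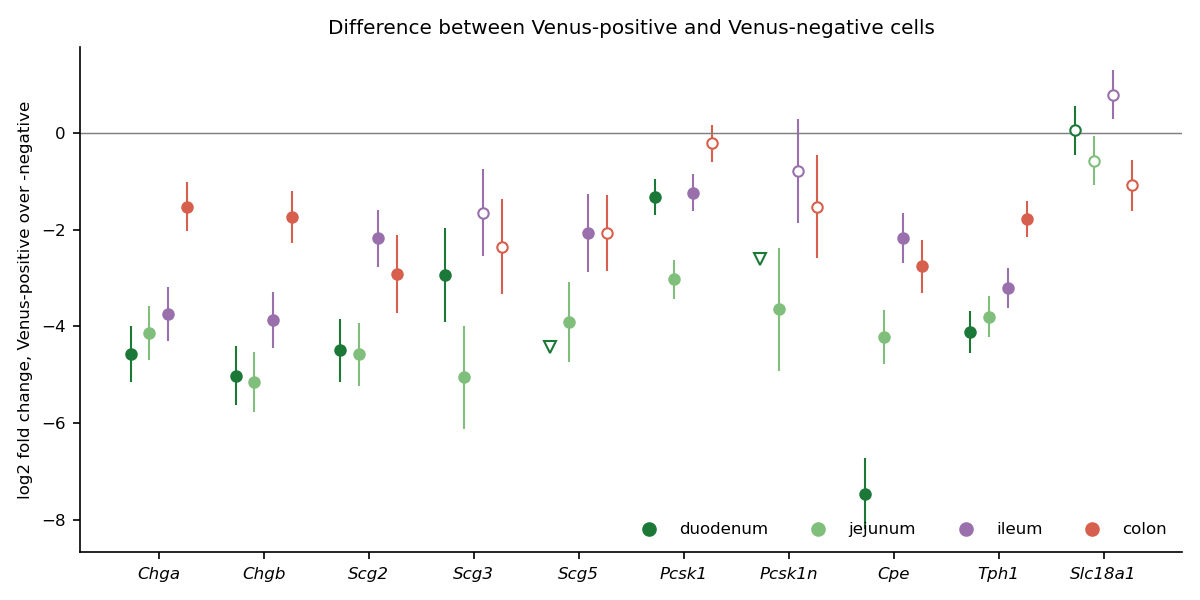
Log2 fold change between Venus-positive and Venus-negative cells for the 10 genes in 4 regions, with the standard error of edgeR's fit. Filled points passed an adjusted p of 0.05, open points did not, and open triangles mark the upper bound of the log2 fold change where the Venus-positive libraries had no count. Chga, Chgb and Tph1 lie nearer to 0 in the colon than in the duodenum and jejunum, and none of the 4 values of Slc18a1 passed (−1.09 to 0.79).

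Whether the difference between the sorts depended on region was tested by interaction contrasts over all genes. Between the colon and duodenum 5 of the 10 genes differed (Chga, Chgb, Scg5, Cpe and Tph1) beside 3.62% of all genes, and between the colon and jejunum 4 of the 10 (Chga, Chgb, Pcsk1 and Tph1) beside 9.69%. In each of these the deficit in Venus-positive cells was smaller in the colon. For Chga it was smaller by 3.04 ± 0.72 on the log2 scale than in the duodenum (adjusted p 0.0115) and by 2.60 ± 0.71 than in the jejunum (0.0179). For Chgb the differences were 3.27 ± 0.75 (0.00948) and 3.40 ± 0.75 (0.00434), and for Tph1 2.34 ± 0.55 (0.0116) and 2.02 ± 0.55 (0.0169). Among colonic Venus-positive libraries replicate 2 held the most of these transcripts (303 CPM summed over the 10 genes, against 153 and 162 CPM). Without it the adjusted p was 0.0756 for Chga and 0.0512 for Chgb against the duodenum, 0.077 for Tph1 against the duodenum, and 0.0858 for Chga and 0.0779 for Tph1 against the jejunum. The Chga difference from the jejunum was also lost without jejunal Venus-positive replicate 1 (0.0574) or Venus-negative replicate 1 (0.0664). The Tph1 difference from the duodenum was lost without colonic Venus-negative replicate 2 (0.0501). That from the jejunum was lost without the same library (0.0602), without jejunal Venus-negative replicate 1 (0.0676) or Venus-positive replicate 2 (0.101), and in a fit of the compared libraries alone (0.0681). Both Tph1 differences were lost under scaling by library size alone (0.114 and 0.133). The difference of Pcsk1 between colon and jejunum, 2.80 ± 0.54, was kept in every alternative fit (adjusted p 0.00141).

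Within the small intestine 3 of the 10 genes differed between jejunum and duodenum (Scg5, Pcsk1 and Cpe) beside 14.6% of all genes, 2 between ileum and duodenum (Scg5 and Cpe) beside 10.5%, and none between ileum and jejunum beside 0.266% or between colon and ileum beside 2.79%. For the last pair of contrasts edgeR gave 4 genes each at an unadjusted p under 0.05, and DESeq2 called none. The shares of all genes above are for adjusted p values, and none is given here for the unadjusted counts. The Cpe deficit was deeper in the duodenum than in the ileum (adjusted p 0.000325) and the jejunum (0.0182). The latter call was lost without duodenal Venus-positive replicate 1 (0.0618) or jejunal Venus-positive replicate 3 (0.0562). Fitted differences of Scg5 rest on duodenal libraries without a count and bound nothing in size. Its call between jejunum and duodenum (adjusted p 0.046) was lost in 10 of the 12 fits that left out 1 library, the exceptions being jejunal Venus-positive replicates 1 and 3. The call of Scg5 between colon and duodenum (0.0154) was lost without duodenal Venus-positive replicate 2 (0.0546). The call of Pcsk1 between jejunum and duodenum, where its deficit was deeper in jejunal cells by 1.69 (log2) (adjusted p 0.0317), was lost in 7 of 12 such fits, namely without replicate 1 or 2 of either jejunal sort, Venus-negative replicate 1 or 2 of the duodenum or its Venus-positive replicate 2 (adjusted p up to 0.122).

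Venus-positive cells of different regions were then compared directly. Chga, Chgb and Tph1 were higher in the colon than in each small intestinal region, with no overlap. The enteroendocrine markers of the same libraries ran the other way against the jejunum and ileum, with sums of 30.3 to 46.2 CPM in the colon, 54.0 to 84.2 CPM in the jejunum and 82.5 to 95.8 CPM in the ileum, and overlapped those of the duodenum (31.9 to 49.0 CPM). These sums add hormones to transcription factors, and the levels of single hormones by region are not given. They are therefore no measure of enteroendocrine content between regions. Against the duodenum the log2 differences were 3.07 ± 0.54 for Chga (adjusted p 0.000118), 2.90 ± 0.56 for Chgb (0.000388) and 3.00 ± 0.43 for Tph1 (5.16e-06). Against the ileum they were 3.24 ± 0.54 (4.66e-05), 3.03 ± 0.56 (0.000191) and 3.28 ± 0.42 (7.68e-07), and against the jejunum 2.46 ± 0.52 (0.000478), 2.93 ± 0.56 (0.000141) and 3.36 ± 0.42 (3.16e-07). None of these 9 calls was lost when a library was left out. In all, 6 of the 10 genes differed between colon and duodenum beside 12.4% of all genes, 5 between colon and jejunum beside 33.9%, and 4 between colon and ileum beside 21.7%. Apart from Pcsk1 and Scg2, given below, the rest were Scg5, Pcsk1n and Cpe, whose calls against the duodenum rest on Venus-positive libraries with 0 to 3 counts there, and Pcsk1n against the jejunum (adjusted p 0.0414), a call lost without jejunal or colonic Venus-positive replicate 1 or 2 (up to 0.16). Without jejunal replicate 3 the fitted value of that difference moved from 3.37 to 7.25, so its size is not determined. The call of Pcsk1n between colon and duodenum (0.0129) was lost without duodenal replicate 2 (0.0583) or colonic replicate 2 (0.055). The call of Cpe between colon and duodenum (0.0285) was lost in 5 of 6 fits that left out a library (without any of the duodenal libraries, or colonic replicate 1 or 3; adjusted p up to 0.126) and under library size alone (0.0534). Scg2 went the other way and was lower in the colon than in the ileum by 2.86 on the log2 scale (adjusted p 0.00902), a call lost without colonic Venus-positive replicate 3 (0.0657), the library at 0 counts. Without colonic replicate 1 the value was −4.71. Pcsk1 was higher in Venus-positive cells of the colon than of the jejunum (log2 difference 1.41 ± 0.39, adjusted p 0.00591), which was lost without jejunal Venus-positive replicate 2 (0.057).

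Among Venus-positive cells of the small intestine, 3 of the 10 genes differed between jejunum and duodenum beside 33.2% of all genes, 3 between ileum and duodenum beside 25.5%, and none between ileum and jejunum beside 5.15%, where edgeR gave none at an unadjusted p under 0.05 and DESeq2 called none. The shares of the 10 genes were close to or below the background. Scg5 (both contrasts with the duodenum) and Pcsk1n (ileum) are among the calls, and rest on duodenal libraries without a count. The call of Scg5 between ileum and duodenum (adjusted p 0.0238) was lost in 5 of 6 fits that left out a library (all but the one without ileal replicate 2; up to 0.0843), and that between jejunum and duodenum (0.00842) without jejunal replicate 2 (0.0507). The call of Pcsk1n between ileum and duodenum (0.0282) was lost without any of the duodenal libraries or ileal replicate 2 (up to 0.0917). Pcsk1 was lower in the jejunum than in the duodenum by 1.50 on the log2 scale (adjusted p 0.00381). Cpe was higher in the jejunum (log2 difference 3.10 ± 0.79, adjusted p 0.00312) and the ileum (3.18 ± 0.79, 0.00338) than in the duodenum, where its 3 Venus-positive libraries held 0, 3 and 2 counts.

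Venus-negative cells, which held most of these transcripts, were compared between regions in the same way. The sums of their 18 enteroendocrine markers, given above, were lower in the colon (62.1 to 162 CPM) and ileum (132 to 301 CPM) than in the duodenum (672 to 1106 CPM) or jejunum (389 to 1241 CPM). Mean Chga was nevertheless 185 CPM in the duodenum and 188 CPM in the colon, and sums that hold hormones are no measure of enteroendocrine content between regions. The part of these markers in the regional differences was not tested. Jejunum and duodenum did not differ for any of the 10 genes, beside 0.725% of all genes, and edgeR gave none at an unadjusted p under 0.05 and DESeq2 called none. The colon differed from the duodenum for 3 genes beside 11.2% of all genes, from the jejunum for 4 beside 10.5%, and from the ileum for 2 beside 5.24%. The ileum differed from the duodenum for 1 gene (Cpe) beside 4.4% and from the jejunum for 1 (Cpe) beside 2.11%. At an unadjusted p under 0.05 edgeR gave 6 and 7 genes lower in the ileum than in the duodenum and the jejunum, and DESeq2 called 4 and 2. The shares of all genes above are for edgeR's adjusted p values and are no background for these counts.

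The steepest of these was Scg2, which in Venus-negative cells of the colon was lower than in the duodenum by 3.91 ± 0.62 on the log2 scale (adjusted p 3.61e-05) and than in the jejunum by 3.57 ± 0.62 (0.000113), both kept whichever library was left out. Against the ileum it was lower by 2.12 ± 0.60 (0.0307), which was lost without any single colonic Venus-negative library (adjusted p 0.0951 to 0.0957) or ileal replicate 2 (0.272) and in a fit of the compared libraries alone (0.117). Cpe was at 29.8 ± 5.89 CPM in the duodenum and 27.0 ± 14.6 CPM in the jejunum and fell to 6.89 ± 3.04 CPM in the ileum and 7.21 ± 1.37 CPM in the colon. It was lower than in the duodenum by 2.11 ± 0.49 in the ileum (adjusted p 0.0076) and by 2.04 ± 0.49 in the colon (0.0051). Against the jejunum the calls of Cpe (ileum 0.0231, colon 0.0092) were lost without jejunal Venus-negative replicate 1 (0.0954 and 0.0619) or 2 (0.177 and 0.0802), without ileal replicate 1 (0.115) or 3 (0.103), or without colonic replicate 2 (0.0555).

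Tph1 ran in the opposite direction. Its Venus-negative level in the colon, 40.5 ± 5.73 CPM, exceeded that of the ileum, 11.2 ± 3.86 CPM, by 1.85 ± 0.37 on the log2 scale (adjusted p 0.00145), and that of the jejunum, 16.1 ± 5.06 CPM, by 1.33 ± 0.37 (0.0149). The difference from the jejunum was lost without jejunal Venus-negative replicate 3 (0.109) or colonic replicate 3 (0.057). The duodenum, at 25.6 ± 6.67 CPM, stood between them and did not pass a test against any region. Pcsk1 was lower in the colon, at 9.0 ± 2.60 CPM, than in the duodenum, at 20.7 ± 3.86 CPM (adjusted p 0.034), or the jejunum, at 23.6 ± 9.02 CPM (0.0132). Its call against the duodenum was lost in 4 of 6 fits that left out a library (without colonic replicate 1 or 2, or duodenal replicate 2 or 3, adjusted p up to 0.224) and under 6 other settings (0.0546 to 0.11), and that against the jejunum without jejunal replicate 1 (0.204) or colonic replicate 2 (0.168), under library size alone (0.0783) and in a fit of the compared libraries (0.0741). Chga, Chgb, Scg3, Scg5, Pcsk1n and Slc18a1 did not pass a test between any pair of regions in Venus-negative cells.

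To compare the genes within a library, each was set against Chga of the same library as a log2 ratio of counts (prior count 0.5), and 9 such ratios were tested. Across the 4 regions in Venus-negative cells, an exact permutation test over all 369600 assignments of the 12 libraries gave adjusted p values of 0.0152 for Cpe, 0.0263 for Scg3, 0.0275 for Scg2 and 0.0275 for Scg5. All 4 ratios were lowest in the colon, but that of Scg5 was nearly the same in the ileum (−6.08 ± 0.28 in the colon and −6.04 ± 0.52 in the ileum, SD). Scg2 stood at −3.53 ± 0.86 (SD, n = 3) in duodenal libraries, −3.95 ± 0.23 in jejunal, −4.23 ± 0.71 in ileal and −7.27 ± 0.61 in colonic ones. Cpe stood at −2.64 ± 0.47, −2.89 ± 0.25, −3.70 ± 0.30 and −4.66 ± 0.78 in that order. Tph1 was highest in the colon, at −2.16 ± 0.68 against −3.51 ± 0.59 in the jejunum (exact adjusted p 0.183 across regions). Chgb kept the narrowest band, between 1.06 (colon) and 1.44 (duodenum) (0.183). These calls were weak: with Chgb as denominator none of the 9 ratios passed, and 7 of the 12 fits that left out 1 library changed the number of calls by more than 1.5 times (0 to 4 calls). Scg3 was lost in 10 of 12 such fits and Scg5 in 8 of 12, the spread of Scg3 in the colon (SD 3.56) resting on replicate 1 with no count. Cpe was lost without ileal replicate 1 (0.0503) or duodenal replicate 3 (0.0561), and Scg2 in 5 of 12 fits (adjusted p up to 0.0757).

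The same ratios were also compared between the sorts, where they restate in part the fold changes of each gene and of Chga given above. In an exact permutation test within regions (160000 assignments, two-sided, 24 libraries), Slc18a1 was higher relative to Chga in Venus-positive cells by 3.40 on the log2 scale on average over the regions (adjusted p 0.000675). From duodenum to colon this came to 4.90, 3.61, 4.44 and 0.64. Pcsk1 was higher relative to Chga by 2.08 on average (adjusted p 0.000844), with 3.48, 1.03, 2.42 and 1.38 in the same regions. Chgb was lower relative to Chga by 0.41 (adjusted p 0.0135), with −0.38, −0.77, −0.29 and −0.19 in the regions. These 3 calls were kept in each of 24 fits that left out 1 library, with Chgb as denominator for Slc18a1 and Pcsk1, and with a prior count of 2. The ratio of Tph1 to Chga differed by 0.29 between the sorts (0.496), and the ratios of Scg2, Scg3, Scg5, Pcsk1n and Cpe did not pass either. With a prior count of 2 that of Pcsk1n, a low transcript, passed (1.61, exact permutation, adjusted p 0.0123, against 0.91 and 0.442).

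**Figure D4:**
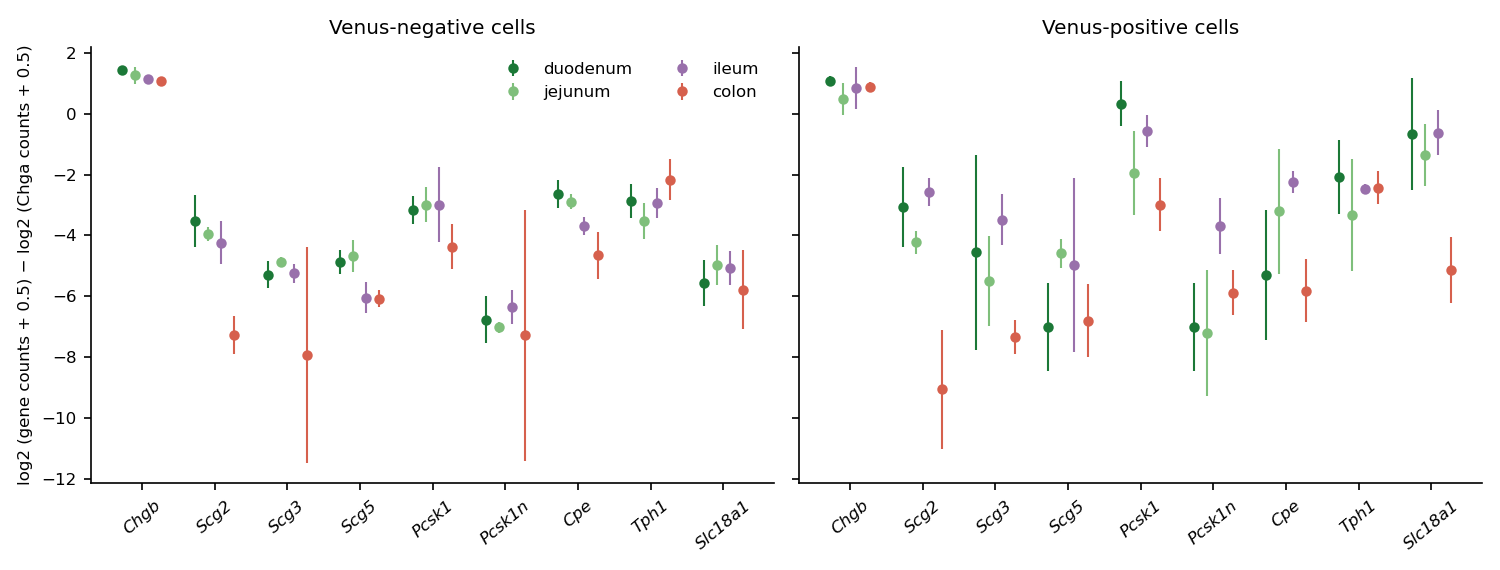
Log2 ratio of each gene to Chga in the same library, in Venus-negative (left) and Venus-positive cells (right), as mean and SD of 3 libraries per region. In Venus-negative cells Scg2 lies lowest in the colon (−7.27), and in Venus-positive cells Slc18a1 and Pcsk1 lie higher than in Venus-negative cells.

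Libraries that held more Chga than others of their group also held more Chgb. As deviations from the group means of log2 CPM over the 12 Venus-negative libraries, Chgb had a Pearson r of 0.99 with Chga, Scg5 0.82, Cpe 0.75, Scg2 0.65, Tph1 0.63, Slc18a1 0.31, Scg3 0.19, Pcsk1 0.18 and Pcsk1n 0.01. Over the 12 Venus-positive libraries r with Chga was 0.87 for Chgb and between −0.65 (Slc18a1) and 0.41 (Pcsk1n) for the rest. The genes share each library's depth and scaling, and r is a description of these libraries. The low transcripts were read with few counts.

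The profile of the 10 genes over the 8 groups was summarised as the mean of their standardised log2 CPM. Cpe (r 0.97), Scg5 (0.96), Scg3 (0.94), Chgb (0.93) and Chga (0.91) had the highest r with it and Slc18a1 the lowest (0.20), where part of each r is built in, since the mean contains the gene itself. Of 12490 other protein-coding genes 301 (2.41%) had an r of at least 0.9 with it. The 10 most alike were Pkib (r 0.99), Mgst1, Uchl3, Gng4, Mnd1, Peg3, Unc80, Cops2, Med6 and Kcnc1 (0.98), over 8 group means. Peg3, for example, was at 7.50, 11.8, 3.98 and 2.75 CPM in Venus-negative cells of the duodenum, jejunum, ileum and colon and at 0.396, 0.490, 0.800 and 1.12 CPM in Venus-positive ones. Standardised profiles carry neither level nor size of change. Pkib averaged at most 1.57 CPM in any group and 0 CPM in Venus-positive cells of the duodenum and jejunum. Group means of Cops2 lay between 23.4 and 35.0 CPM.

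Genes that work beside the 10 were drawn from 4 lists. The shares of all genes given above for the sort difference (8.08%, 25.6%, 20.6% and 3.8% lower and 8.88%, 18.3%, 17.9% and 9.31% higher from duodenum to colon) are the background of each list. Of 11 further granule proteins 8 were tested, and Pcsk2, another prohormone convertase, was not among them. Among those tested, 5, 4, 2 and 1 were lower in Venus-positive cells of the duodenum, jejunum, ileum and colon, and 0, 0, 1 and 1 higher. The ileal shares and the shares of higher genes in all regions were near or below the background. Their median log2 fold change was −4.62 (−2.22 with 4 genes without Venus-positive counts at their bound), −3.52, −1.88 and −1.46. Resp18, a granule luminal protein, was lower in the duodenum, jejunum and ileum (jejunum 0.0243 ± 0.0421 against 3.25 ± 1.72 CPM, adjusted p 0.000308). Ptprn, the granule membrane protein IA-2, was lower in the duodenum and jejunum (jejunum 0.176 ± 0.194 against 3.83 ± 2.36 CPM). Vgf, a granin-like precursor, was read at no more than 0.681 CPM in any group and did not pass. Ptprn2, the relative of Ptprn, was lower in the jejunum (2.98 ± 1.96 against 21.1 ± 13.5 CPM, adjusted p 0.000517) but higher in the colon (28.8 ± 4.57 against 7.58 ± 7.09 CPM, 0.0314). Pam, the amidating enzyme of peptide hormones, was lower in the duodenum (3.91 ± 2.55 against 26.4 ± 8.60 CPM) and higher in the ileum (28.6 ± 14.6 against 14.1 ± 1.43 CPM, 0.0238).

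Of 17 genes of regulated exocytosis, all tested, 5, 7, 2 and 1 were lower in Venus-positive cells of the duodenum, jejunum, ileum and colon, and 7, 1, 3 and 2 higher, with medians of 0.43, −0.77, −0.03 and 0.47. In the ileum and colon both shares, and in the jejunum that of higher genes, were near or below the background. Lower were Cplx2, a complexin of neurosecretory cells, in all 4 regions (colon 1.90 ± 1.43 against 7.62 ± 0.72 CPM, adjusted p 0.0494), Syt13 in the 3 small intestinal regions, and Snap25, a membrane fusion protein of neurons and endocrine cells, in the duodenum and jejunum. Higher was Rab27a, a granule-docking GTPase, in the duodenum (123 ± 28.6 against 4.72 ± 1.61 CPM), jejunum (6.36 ± 4.27 against 2.41 ± 0.664 CPM) and ileum (18.2 ± 8.27 against 3.28 ± 0.236 CPM). Goblet markers moved with Rab27a, summing to 53013 to 60457 CPM in duodenal Venus-positive and 310 to 434 CPM in duodenal Venus-negative libraries, and their part in it was not tested.

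Of 12 genes of serotonin and amine handling 10 were tested; 5, 2, 1 and 1 were lower and 0, 2, 5 and 1 higher in the 4 regions from duodenum to colon, with medians of −1.02, 0.50, 0.91 and −0.42. In the jejunum both shares, in the ileum that of lower genes, and in the duodenum and colon that of higher genes were near or below the background. Slc18a2, the neuronal vesicular transporter VMAT2, averaged no more than 0.727 CPM in any group and passed in the duodenum, where the Venus-positive libraries had no count (adjusted p 0.0451). Pts, which helps make the cofactor of Tph1, was lower in the duodenum, jejunum and ileum (jejunum 5.57 ± 2.0 against 27.3 ± 5.06 CPM), and Qdpr, which recycles that cofactor, in the duodenum and jejunum. Gch1, the first enzyme of cofactor synthesis, was higher in the jejunum (22.1 ± 10.9 against 9.38 ± 3.33 CPM, adjusted p 0.0498) and ileum (12.4 ± 7.36 against 4.26 ± 1.55 CPM, 0.0206). Of 8 proteases of the constitutive secretory route 7 were tested; 3, 4, 5 and 3 were higher and 1, 0, 1 and 0 lower, with medians of 1.15, 1.39, 1.36 and 0.59. The shares of lower genes rest on 1 gene each, and the ileal one was below the background. Cpm, a membrane carboxypeptidase, was higher in the duodenum (31.6 ± 12.3 against 2.45 ± 0.913 CPM) and ileum. Pcsk5, a convertase, was lower in the duodenum (28.6 ± 7.70 against 63.9 ± 7.47 CPM, 0.0107) and higher in the other regions (jejunum 161 ± 31.6 against 53.2 ± 15.2 CPM). Pcsk4 did not pass in any region, and Pcsk6 passed in the ileum, lower at 0 against 0.226 CPM, near the floor of detection. These list counts are descriptions; Venus-negative cells are all cells without Venus and not one cell type.

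**Figure D5:**
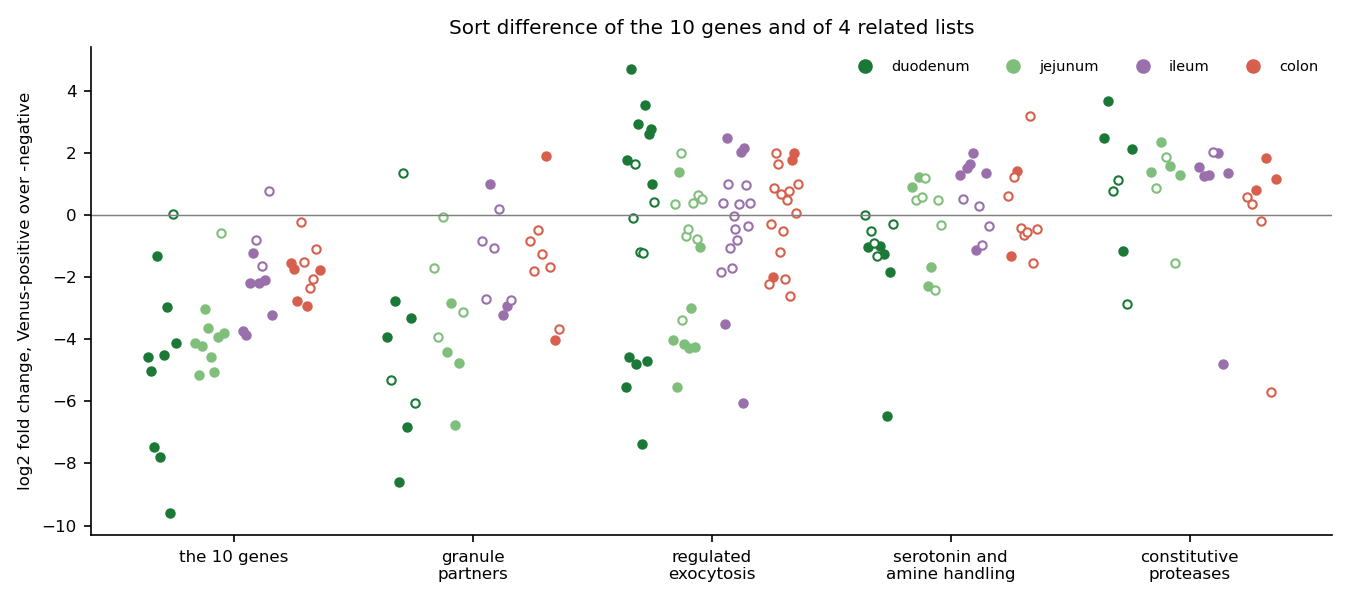
Log2 fold change between Venus-positive and Venus-negative cells for each tested gene of the group of 10 and of 4 related lists, by region. Filled points passed an adjusted p of 0.05. The 10 genes and the granule partners lie mostly below 0, the constitutive proteases mostly above it; points of genes without a Venus-positive count are fitted values and no bound.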

How the data were processed

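RNA from 24 libraries of sorted cells was sequenced as single-end reads. The authors deposited raw counts per gene, made with STAR 2.5.1 (base calls with CASAVA) against GRCm38 per the submitters' processing notes. Neither their annotation nor their strand setting is given in the sources used here. Lines that name no gene (39.4% to 75.8% of the reads of a library) were left out of library sizes and tests. Counting intervals and floors cover counting error only, since amplified reads are not independent molecules.

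Groups came from the labels. Symbols and positions came from GENCODE M21 (53360 of 53465 genes). In edgeR 4.0.16 (R 4.3.3), low genes were removed by filterByExpr (counts of at least 10, 15 in total), libraries were scaled by TMM and the model was fitted by quasi-likelihood with 1 coefficient per group (common dispersion 0.185, 16 residual degrees of freedom). Sort differences, their interactions with region and differences between regions within a sort were tested, with Benjamini-Hochberg adjustment over all 15044 genes in each of 22 contrasts and a threshold of 0.05. Ratios to Chga were tested by exact permutation with adjustment over the 9 ratios. Log2 CPM used a prior count of 2. The tests were checked on simulated data.

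The members and lists were chosen with earlier results of these data known. From each related list the 3 genes with the lowest mean log2 fold change, the 1 with the highest and any gene called against most of its list were named. The motifs were chosen after the promoter windows had been seen. The rule's last clause was applied to the granule and protease lists, where calls ran mostly in 1 direction. Alternatives were DESeq2 1.42.0, RLE factors, raw library totals, the unfiltered table, a stricter filter (10 counts in each library), a table without non-coding and mitochondrial genes, a term for the i5 index, fits of the compared libraries alone, a threshold of 0.01, Chgb as denominator, a prior count of 2 and each library left out. One more, leaving out 2 libraries, was chosen after seeing the data.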

Additional observations from a re-analysis of the deposited data

Results flagged for a closer look

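The difference between Venus-positive and Venus-negative cells itself differed between regions for 14 combinations of gene and region pair, each past an adjusted p of 0.05 in edgeR's interaction test. Colon minus duodenum, the log2 differences were 3.04 for Chga, 3.27 for Chgb, 7.52 for Scg5, 4.70 for Cpe and 2.34 for Tph1. Colon minus jejunum, they were 2.60 for Chga, 3.40 for Chgb, 2.80 for Pcsk1 and 2.02 for Tph1. Jejunum minus duodenum, they were 5.68 for Scg5, −1.69 for Pcsk1 and 3.24 for Cpe, and ileum minus duodenum 7.51 for Scg5 and 5.28 for Cpe. The values of Scg5 rest on duodenal Venus-positive libraries without a count and are no measure of size, and those of Cpe that involve the duodenum rest on 5 counts in its Venus-positive libraries. Of the 14 calls 5 were kept whichever library was left out.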

How the results depend on the processing

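No paired analysis was possible because the labels number no replicate and name no mouse. Of 30 sort differences called among the 10 genes, 21 were kept whichever library was left out and 25 under all other alternatives at the same threshold of 0.05 in which the gene was tested. Leaving out 1 library gave 7 to 8 genes lower in Venus-positive cells of the duodenum, 8 to 9 in the jejunum, 5 to 7 in the ileum and 2 to 5 in the colon. Genes with a sort difference that depended on region then numbered 2 to 5 (colon against duodenum), 0 to 1 (colon against ileum), 2 to 4 (colon against jejunum), 2 to 3 (ileum against duodenum), 0 to 1 (ileum against jejunum) and 1 to 2 (jejunum against duodenum). In Venus-negative cells the regions differed for 2 to 3, 1 to 2, 2 to 4, 1 to 2 and 0 to 1 genes (colon against duodenum, colon against ileum, colon against jejunum, ileum against duodenum, ileum against jejunum), and in Venus-positive cells for 3 to 5 (colon against jejunum) and 1 to 2 (ileum against duodenum). The ratios that differed across regions numbered 0 to 4.

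Requiring at least 10 counts in every library left 7530 genes and 5 of the 10 (Chga, Chgb, Pcsk1, Tph1 and Slc18a1), since it removes genes that are low in 1 sort. It gave 4, 4, 4 and 3 genes lower in Venus-positive cells from duodenum to colon, beside 13.1%, 29.9%, 27.5% and 10.2% of all 7530 genes. Its interactions numbered 1 (jejunum against duodenum), 0 (ileum against duodenum) and 3 (colon against duodenum). Its Venus-negative differences numbered 0, 0, 0, 2 and 1 (ileum against duodenum, colon against duodenum, ileum against jejunum, colon against jejunum, colon against ileum), and its Venus-positive ones 1, 1 and 3 (jejunum, ileum and colon against duodenum).

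An adjusted p of 0.01 left 2 genes lower in the colon, 0, 2 and 2 interactions (jejunum against duodenum, colon against duodenum, colon against jejunum), 0, 2 and 1 Venus-negative differences (ileum against jejunum, colon against jejunum, colon against ileum) and 1 Venus-positive difference (ileum against duodenum). With no filter the interactions were 4 (ileum against duodenum) and 2 (colon against ileum), and the Venus-negative differences 4 (ileum against duodenum) and 3 (ileum against jejunum). With only the compared libraries these were 4 (interaction, ileum against duodenum), 4, 2 and 1 in Venus-negative cells (ileum against duodenum, ileum against jejunum, colon against ileum), and 1, 1 and 3 in Venus-positive cells (jejunum, ileum and colon against duodenum). Venus-negative differences between ileum and duodenum numbered 4 with DESeq2, 3 with protein-coding genes outside the mitochondrial genome and 3 with the i5 index as covariate. Those between ileum and jejunum numbered 2 with DESeq2 and 0 with library size alone. With jejunal and ileal Venus-negative replicate 3 both left out, chosen after seeing the data, the counts were 2 (interaction, colon against ileum), 2 (Venus-negative, ileum against jejunum) and 0 ratios across regions. With Chgb as denominator 0 ratios passed. The cause of these changes was not tested. Apart from the shares given for the stricter filter, the counts in this section stand without a share of all genes at the same setting.

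The sign turned for Slc18a1 in the duodenum (−0.13, −0.15 and −0.41 without Venus-negative replicate 1, Venus-negative replicate 2 or Venus-positive replicate 3, with values up to 0.48 over all 6 such fits), for the ratio of Scg2 to Chga between the sorts in 10 of the 24 fits that left out a library (−0.26 to 0.20 over all 24; 0.02 with all libraries) and for that of Scg5 with a prior count of 2 (0.36). None of these passed a test with all libraries.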
